A study of Mus musculus with 2 samples.

Results

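The Toll-like receptor genes Tlr1, Tlr2, Tlr3, Tlr4, Tlr5, Tlr6, Tlr7, Tlr8, Tlr9 and Tlr13 were described in small peritoneal macrophages of endotoxemic mice. These 10 genes were taken by symbol from 55487 gene IDs, and the rule that lists them uses no measured value, although the set was proposed with earlier results of these data known. In every mouse endotoxemia was produced by 20 mg/kg lipopolysaccharide (LPS, from Escherichia coli O55:B5) given into the peritoneum of 5-week-old male SWISS mice. Saline (30 mL/kg) was given under the skin of all mice at 6 h, and they were killed at 22 h after LPS. The LPS library came from cells pooled from 7 mice (102283 cells). The LPS+LCC-12 library came from cells pooled from 8 mice (66967 cells) that had also received 0.3 mg/kg LCC-12, a compound that binds copper in mitochondria, into the peritoneum at 6 h. No library without LPS was analysed here. Because each group was 1 library, the treatment could not be tested, and every interval given is a 95% interval of counting error that leaves out variation between mice.

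Toll-like receptors are transmembrane sensors of microbial products that signal through an intracellular TIR domain. TLR2 with TLR1 or TLR6 reads lipopeptides, TLR4 with MD-2 reads LPS, and TLR5 reads flagellin, all at the cell surface. TLR3, TLR7, TLR9 and TLR13 read nucleic acids in endosomes, where they and TLR8 arrive with the chaperone UNC93B1. MyD88 is the adaptor of most receptors of the family, TRIF is the adaptor of TLR3, and TLR4 uses both.

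Sequencing depth was alike, with gene counts of 50618409 (LPS) and 47721888 (LPS+LCC-12). Macrophage genes were abundant in both, with Adgre1, which encodes F4/80, at a CPM (count scaled to the library's size) of 839 and 825 and Ccr2 at 365 and 360. Markers of other cells were present as well. Summed over 10 neutrophil genes, the CPM was 9154 with LPS and 3400 with LPS+LCC-12, and none of these genes was at 0. These genes were uneven in level, and S100a9 alone gave 3913 and 1464 of the sums. Also high were Mmp8 at 1628 and 329 CPM, Csf3r at 1397 and 575, and S100a8 at 1006 and 457. The lowest of the 10 were Ly6g, at 13.3 and 5.7 CPM, and Camp, at 1.46 and 1.34 CPM. Apart from S100a9, these neutrophil genes were named after their values were seen. The sum over 9 general macrophage genes was 7753 and 9301, of which Lyz2 gave 3049 and 4508.

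Of the receptor genes, 7 were lower and 3 were higher in the LPS+LCC-12 library. The largest difference was that of Tlr9, a sensor of unmethylated CpG DNA, which was 2.29-fold lower. Tlr1, Tlr2, Tlr6, Tlr7, Tlr8 and Tlr13 were 1.29-fold to 1.47-fold lower. Tlr3 and Tlr5 differed by less than counting error, and Tlr4, the receptor for LPS itself, was 1.09-fold higher.

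Start-site sequences are shown for the gene with the largest difference (Tlr9) and for a surface receptor with a lower CPM after LCC-12 (Tlr2). The 3rd is an endosomal receptor without a detectable difference (Tlr3). Each is the 250 bases before the RefSeq start on GRCm38.p6, 5′ to 3′ on the gene's strand, with matches to the searched motifs in capitals. The windows are chr9:106222348-106222597 (plus strand) for Tlr9, chr3:83841609-83841858 (minus) for Tlr2 and chr8:45410381-45410630 (minus) for Tlr3. RefSeq starts are not always those of GENCODE M21, the annotation used for the gene coordinates given here. By GENCODE M21 the Tlr9 window ends directly before the gene. The Tlr2 window lies partly inside its gene and the Tlr3 window wholly inside.
Tlr9: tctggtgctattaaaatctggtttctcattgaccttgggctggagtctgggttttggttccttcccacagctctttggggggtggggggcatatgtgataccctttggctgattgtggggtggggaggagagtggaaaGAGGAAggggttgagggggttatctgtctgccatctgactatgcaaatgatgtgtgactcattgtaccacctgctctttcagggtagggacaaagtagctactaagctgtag
Tlr2: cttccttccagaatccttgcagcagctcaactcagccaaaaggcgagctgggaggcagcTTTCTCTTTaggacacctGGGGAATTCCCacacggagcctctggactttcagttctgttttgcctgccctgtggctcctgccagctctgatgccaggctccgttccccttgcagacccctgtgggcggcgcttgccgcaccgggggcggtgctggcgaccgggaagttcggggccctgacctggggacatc
Tlr3: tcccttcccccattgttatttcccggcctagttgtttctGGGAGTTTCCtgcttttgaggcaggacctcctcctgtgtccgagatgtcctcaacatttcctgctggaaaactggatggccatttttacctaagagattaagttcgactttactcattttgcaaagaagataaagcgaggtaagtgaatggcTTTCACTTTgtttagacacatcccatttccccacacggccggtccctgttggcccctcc

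The motifs were a core of PU.1, a factor of myeloid cells (GAGGAA), a core of the interferon-stimulated response element (AAANNGAAA) and the NF-kB motif, each searched on both strands. RefSeq start windows were at hand for 8 of the receptor genes, in 10 windows. The PU.1 letters were found in 4 of the 10 windows (Tlr1, Tlr8, Tlr9 and Tlr13), against 23.3% of the 32851 windows of all genes. The interferon-response letters were found in 3 of the 10 windows (Tlr2, Tlr3 and Tlr6), against 9.37% of all windows. In Tlr6 they were found at 3 overlapping places of 1 of its 2 windows, and that window lies inside the gene by GENCODE M21. The NF-kB motif was found in 2 of the 10 windows (Tlr2 and Tlr3), against 7.25% of all windows. The window of Tlr9 held the PU.1 letters 112 to 107 bases before the start and no other match. A match is a description of letters, not of a bound factor.

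Levels of different genes were compared as CPM per kb of merged exons. In the LPS library the order from highest to lowest was Tlr13, Tlr2, Tlr7, Tlr1, Tlr4, Tlr8, Tlr6, Tlr9, Tlr3 and Tlr5. Tlr13, which reads bacterial ribosomal RNA, had a level of 75.0 CPM per kb (73.8 to 76.2), and Tlr5 had 0.485 (0.401 to 0.582). Tlr13 alone made up 37.2% of the summed level of the 10 genes with LPS and 35.6% with LPS+LCC-12. Tlr2 followed with 42.5 and 30.4 CPM per kb. Neighbours in this order had counting intervals that did not overlap, except Tlr1 at 17.0 CPM per kb (16.4 to 17.7) and Tlr4 at 17.0 (16.5 to 17.5).

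In the LPS+LCC-12 library the order was the same except that Tlr4 stood in 3rd place, above Tlr7 and Tlr1. Tlr4 had 18.5 CPM per kb there (18.0 to 19.0), Tlr7 had 14.7 (14.2 to 15.3) and Tlr1 had 13.2 (12.6 to 13.8). No neighbouring intervals overlapped. With the longest transcript in place of merged exons as the length, Tlr4 was in 3rd place in the LPS library as well, so its move between the libraries depends on the gene model.

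**Figure D1:**
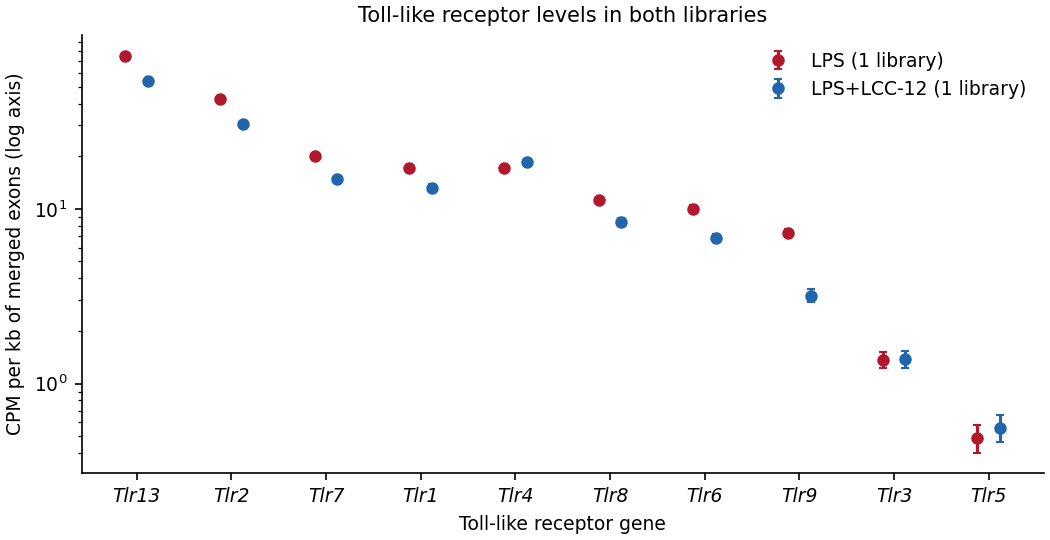
Level of each Toll-like receptor gene as CPM per kb of merged exons (log axis) in the LPS library and the LPS+LCC-12 library, ordered by the LPS library; points are single libraries and bars are exact Poisson intervals of the count. Tlr13 is highest at 75.0 and 53.8, Tlr5 is lowest at 0.485 and 0.557, and the points of Tlr9 lie farthest apart.

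Among the surface receptors, the genes of the TLR2 complexes were lower with LCC-12. Tlr2 (chromosome 3, 83836272 to 83841767, GRCm38) was counted 6393 times with LPS and 4428 times after LCC-12, which is 128 and 91.6 CPM. Its log2 ratio of LPS+LCC-12 over LPS was -0.48 (-0.54 to -0.43). Tlr6, whose product pairs with TLR2 on diacylated lipopeptides, had 1864 and 1229 counts, or 37.3 and 25.4 CPM. Its log2 ratio was -0.55 (-0.66 to -0.45), the lowest of the surface receptors. Tlr1, whose product pairs with TLR2 on triacylated lipopeptides, had 2848 and 2136 counts, or 57.0 and 44.2 CPM. Its log2 ratio was -0.37 (-0.45 to -0.29). Per kb, Tlr1 was 0.401 of Tlr2 with LPS and 0.435 with LPS+LCC-12, and Tlr6 was 0.236 and 0.224 of Tlr2. Tlr1 was 1.70 times Tlr6 with LPS and 1.94 times Tlr6 with LPS+LCC-12.

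Tlr1 and Tlr6 are neighbours on the minus strand of chromosome 5 (64924679 to 64933563 and 64952031 to 64960097), and part of their coding sequence is identical in the reference. The longest run of identical bases, 229 bases, is shown in capitals with 10 bases of each gene on either side in lower case, because a read that lies wholly within it matches both genes. The stretches are chr5:64925527-64925775 for Tlr1 and chr5:64953818-64954066 for Tlr6, 5′ to 3′ on the minus strand, from the GENCODE M21 transcripts.
Tlr1: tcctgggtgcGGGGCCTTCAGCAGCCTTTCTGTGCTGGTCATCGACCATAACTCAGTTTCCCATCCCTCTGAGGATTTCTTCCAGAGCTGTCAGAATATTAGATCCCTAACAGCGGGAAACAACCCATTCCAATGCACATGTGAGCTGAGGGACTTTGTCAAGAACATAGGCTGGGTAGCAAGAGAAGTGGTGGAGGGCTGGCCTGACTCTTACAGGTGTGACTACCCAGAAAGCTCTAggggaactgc
Tlr6: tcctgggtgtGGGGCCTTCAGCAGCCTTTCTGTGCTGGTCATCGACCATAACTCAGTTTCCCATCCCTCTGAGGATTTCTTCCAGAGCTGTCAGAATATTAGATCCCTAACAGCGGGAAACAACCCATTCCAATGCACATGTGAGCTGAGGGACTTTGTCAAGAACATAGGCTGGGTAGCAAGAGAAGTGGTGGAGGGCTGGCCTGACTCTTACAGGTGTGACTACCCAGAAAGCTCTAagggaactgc

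Of the windows of 100 bases, the length of 1 read, in the longest coding transcript, 8.85% of Tlr1 (259 of 2926) and 7.24% of Tlr6 (259 of 3578) also occurred in the other gene. These shares hold for single reads, whereas the libraries were read as pairs, and the share of pairs that match both genes was not computed. How far the counts of both genes are uncertain is not known, since the handling of shared reads was not given. Summed over both genes, the counts were 4712 and 3365 and the log2 ratio was -0.44 (-0.50 to -0.38). That sum was chosen after seeing the data, and it still depends on whether shared reads were dropped or counted for both genes. Of the other 8 receptor genes, 7 shared no such window with another annotated gene. Tlr3 shared 0.418% of its windows with Gm45542, an antisense gene that had 12 and 4 counts.

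Tlr4 and Tlr5 were not lower. Tlr4 (chromosome 4, 66827584 to 66930284) was counted 4716 times with LPS and 4976 times after LCC-12, or 94.4 and 103 CPM, with a log2 ratio of 0.12 (0.07 to 0.18). Per kb, Tlr2 was 2.50 times Tlr4 without LCC-12 and 1.64 times Tlr4 with it. Tlr5 (chromosome 1, 182954788 to 182976044) had 116 and 129 counts, the fewest of the 10 genes, and its log2 ratio of 0.20 had an interval from -0.17 to 0.57. A difference in Tlr5 was not detectable at this depth. Cd14 and Ly96, which encode the LPS co-receptor CD14 and MD-2, were chosen for naming after their values were seen, because their products act with TLR4. Cd14 had 44809 and 33640 counts (log2 ratio -0.37, -0.39 to -0.35) and Ly96 had 840 and 621 (log2 ratio -0.39, -0.54 to -0.24). Both were thus lower, whereas the receptor gene was slightly higher.

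Of the 5 endosomal receptors, 4 were lower. Tlr9 (chromosome 9, 106222598 to 106226883) went from 1265 counts in the LPS library to 534 in the LPS+LCC-12 library, or 25.3 and 11.0 CPM. Its log2 ratio was -1.20 (-1.35 to -1.05). That interval lay wholly below those of all the other receptor genes and, with TMM scaling, wholly past 2-fold. Its upper limit was near 2-fold, and other scalings moved the ratios by up to 0.06. Whether the whole interval lies past 2-fold thus depends on the scaling. Per kb, Tlr9 was 0.366 of Tlr7 with LPS and 0.216 of Tlr7 with LPS+LCC-12.

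Tlr7, Tlr8 and Tlr13 lie on the X chromosome, Tlr8 and Tlr7 side by side (167242696 to 167264329 and 167304929 to 167330558) and Tlr13 apart from them (106143204 to 106160493). TLR7 reads single-stranded RNA and its breakdown products. Tlr7 had 4058 and 2907 counts, or 81.3 and 60.1 CPM, and a log2 ratio of -0.44 (-0.50 to -0.37). Tlr8 had 2015 and 1461 counts, or 40.4 and 30.2 CPM, and a log2 ratio of -0.42 (-0.52 to -0.32). The counting intervals of these neighbours overlapped, and Tlr7 was 1.77 and 1.75 times Tlr8 per kb in the respective libraries. Tlr13 had 16122 and 11203 counts, or 323 and 232 CPM, and a log2 ratio of -0.48 (-0.51 to -0.44).

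Tlr3 (chromosome 8, 45395665 to 45411080), the receptor for double-stranded RNA, had 355 and 346 counts, or 7.11 and 7.15 CPM. Its log2 ratio of 0.01 had an interval from -0.21 to 0.23, and its sign changed with some of the scalings of the libraries. The endosomal receptors therefore ran from 2.29-fold lower to no detectable difference. The remaining mouse genes of the family, Tlr11 and Tlr12, had no count (0 each) without LCC-12, and 4 and 9 counts with it. For a count of 0, up to 3 counts remain possible from counting alone. This upper bound was a set value and was not computed as the other intervals were.

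**Figure D2:**
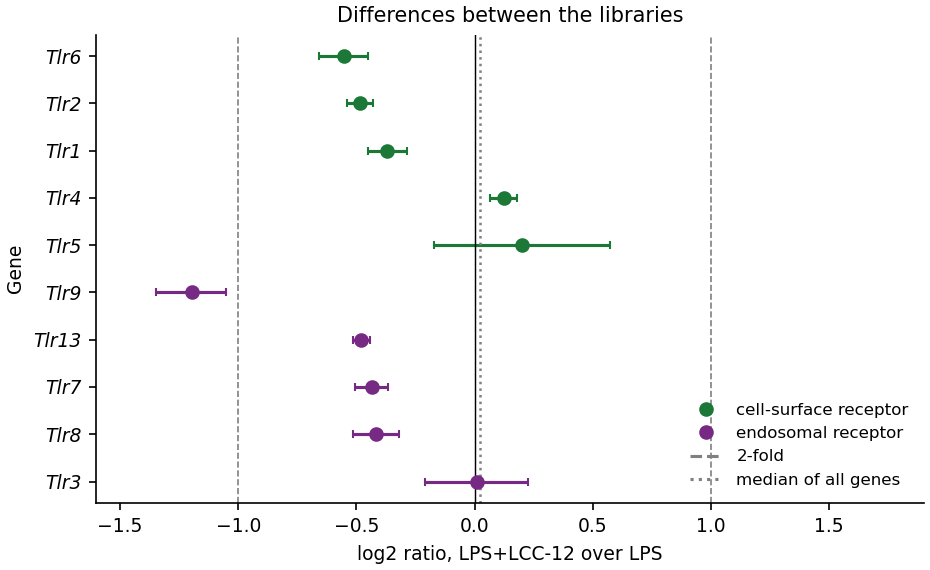
log2 ratio of LPS+LCC-12 over LPS for each gene, with exact binomial counting intervals as bars, grouped into surface and endosomal receptors; dashed lines mark 2-fold and the dotted line the median of all genes. Tlr9 is the gene past 2-fold at -1.20, Tlr1, Tlr2, Tlr6, Tlr7, Tlr8 and Tlr13 lie between -0.55 and -0.37, and Tlr3, Tlr4 and Tlr5 lie at 0.01 to 0.20.

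All 10 genes reached 50 counts in at least 1 library, the minimum used for counting genes. Their median log2 ratio was -0.43, against 0.02 over the 13482 genes with as many counts and 0.05 over the 11220 protein-coding genes among them. Below 0 were 7 of the 10, against 47.6% of all genes. The whole counting interval lay below 0 for 7 and above 0 for 1 (Tlr4), against 32.9% and 36.5% of all genes. At least 1.5-fold lower was 1 gene, Tlr9, against 13.3% of all genes, and none was at least 1.5-fold higher, against 9.67%. At least 2-fold lower was Tlr9 again, against 6.65% of all genes, and none was at least 2-fold higher, against 4.01%. The share past 2-fold was thus near that of all genes, and the low median came from moderate differences in most of the genes. Without Tlr9 the median of the other 9 was -0.42. The surface receptors had a median of -0.37 and the endosomal receptors -0.44.

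Within all 13482 genes, 4.81% had a lower ratio than Tlr9. Between 14.1% (Tlr6) and 20.3% (Tlr1) had a lower ratio than the 6 moderately lower receptors. For Tlr3, Tlr4 and Tlr5 these shares were 48.5%, 61.0% and 69.1%. Over all 10 genes the counts summed to 39752 without LCC-12 and 29349 with it, or 796 and 607 CPM.

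**Figure D3:**
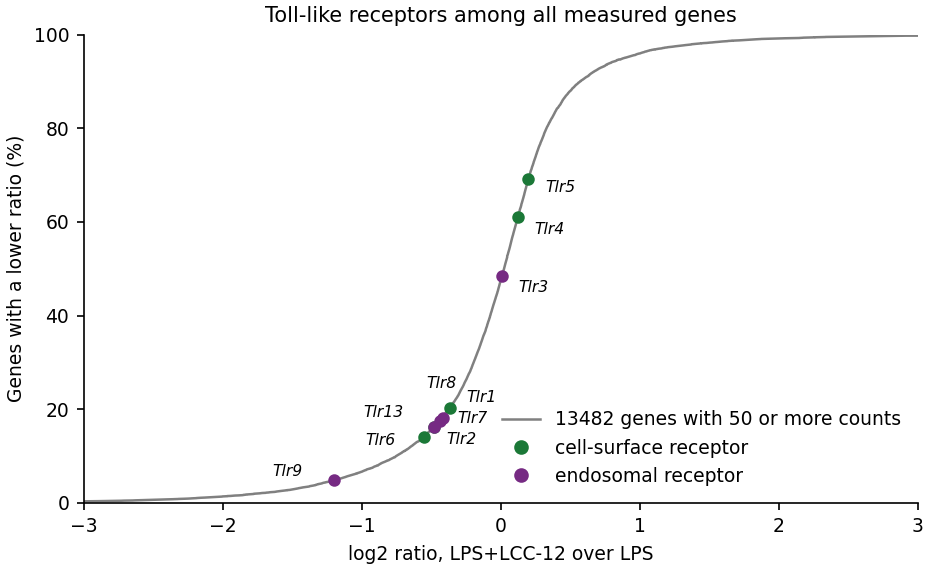
Share of the 13482 genes with a lower log2 ratio (vertical axis, percent) against the log2 ratio of LPS+LCC-12 over LPS (horizontal axis); the grey curve is all genes and the points are the receptor genes. Tlr9 sits at 4.81%, Tlr6, Tlr2, Tlr13, Tlr7, Tlr8 and Tlr1 cluster from 14.1% to 20.3%, and Tlr3, Tlr4 and Tlr5 sit from 48.5% to 69.1%.

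The receptors differed in the same libraries as marker genes of several cell types. Of 10 neutrophil markers, 10 were below 0, 8 of them at least 2-fold lower, with a median log2 ratio of -1.25. S100a9, the most abundant, had 3913 and 1464 CPM. Of 8 monocyte markers, all were below 0 and 5 were at least 2-fold lower, with a median of -1.11 and a summed CPM of 5850 and 3677. Chil3, the most abundant of them, had 1727 and 686 CPM. Neutrophils and monocytes are known to express several of these receptors, and the part of either cell type in the receptor differences was not tested. Fewer cells of a type and less RNA per cell cannot be told apart in these libraries.

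Macrophage markers did not all share that direction. The 9 general macrophage markers were mixed, with a median log2 ratio of 0.03, 4 below 0 and none past 1.5-fold. Lyz2, the most abundant of them, had 3049 and 4508 CPM. Of 8 markers of small peritoneal macrophages, 6 were at least 2-fold higher and none was at least 2-fold lower (median 2.02), and Ccr2 was level at -0.02. Of 10 markers of large peritoneal macrophages, 8 were at least 2-fold higher (median 1.58), with Fn1 at 3114 and 10660 CPM. The largest ratios of that list were those of Cd5l, at 9.33 and 207 CPM, and Timd4, at 6.37 and 104.5 CPM. Selp was the 1 marker below 0. Gata6, the transcription factor gene of large peritoneal macrophages, was present at 10.6 and 14.9 CPM in cells labelled as small peritoneal macrophages. Cd5l, Timd4, Selp and Gata6 were named after their values were seen.

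B cells and plasmacytoid dendritic cells are known for high Tlr9. None of 7 B cell markers was below 0, the median was 0.20, and their summed CPM was 72.2 and 90.3. The part of B cells in the Tlr9 counts was not tested. The plasmacytoid dendritic cell list summed to 72.3 and 77.9 CPM, nearly all of it from Tcf4 at 65.6 and 69.8, and its defining marker Siglech had 0 and 12 counts, and Klk1 was at 0 in both. Conventional dendritic cell markers summed to 7.09 and 7.28 CPM, with Dpp4 at 180 and 207 counts. Clec9a had 0 and 2 counts, and Cd209a had 1 and 0.

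Markers of the remaining cell types were low, except for Hdc in the mast cell list. The 7 mast cell markers summed to 213 and 67.7 CPM, of which Hdc made up 197 and 62.3, and 5 of the 6 with enough counts were at least 2-fold lower. Kit and Fcer1a were named after their values were seen. Kit, the next in level, had 6.33 and 1.86 CPM, and Fcer1a had 2 and 4 counts. Mesothelial markers summed to 7.65 and 1.32 CPM with Upk3b at 2.58 and 0.641, and Wt1 had 0 counts in the LPS+LCC-12 library. Fibroblast markers summed to 15.2 and 6.16 CPM with Dcn at 4.61 and 2.44, and Pdgfra had 0 counts in that library. T and NK cell markers summed to 8.33 and 6.39 CPM, Il7r giving 4.75 and 4.24 of it, and Nkg7 had 0 counts in the LPS+LCC-12 library. Eosinophil markers summed to 1.56 and 1.99 CPM with Siglecf at 0.641 and 1.18, and the defining markers Epx and Prg2 were at 0 in both libraries.

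The other genes of the pathway were taken from 8 lists of 75 genes, of which 72 had 50 or more counts. Their median log2 ratio was -0.05, with 42 below 0. At least 2-fold lower were 5 of the 72, and 2 were at least 2-fold higher, against 6.65% and 4.01% of all genes, shares close to these counts. At least 1.5-fold lower were 10 and at least 1.5-fold higher were 3, against 13.3% and 9.67% of all genes.

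Of the machinery that delivers and activates the receptors, the trafficking chaperones were closest to level. They had a median of 0.01 with none of 8 past 1.5-fold. Unc93b1, the chaperone of the endosomal receptors, had 21307 and 20742 counts (log2 ratio 0.01, -0.02 to 0.04), and Hsp90b1, which folds the receptors, had -0.13. Of the 5 proteases that can cut the receptor ectodomains, Ctsk was 2.81-fold higher on 46 and 126 counts and the other 4 were within 1.5-fold. Nucleases and nucleotide transporters had a median of 0.28 over 7 genes, with 1 below 0. None was past 1.5-fold, a limit that only Tlr9 passed among the receptors. Of these nucleases and transporters, Slc15a3, an endosomal peptide transporter, was lower (-0.52) and Pld4, an endosomal exonuclease, was higher (0.44).

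Of the 7 accessory receptors with enough counts, Cd36, a scavenger receptor that presents lipids to TLR2, was 6.33-fold higher with 3019 and 18517 counts, and the other 6 were within 1.5-fold. Adaptor genes had a median of -0.40 over 5 genes. Myd88 had 9340 and 6868 counts (log2 ratio -0.40, -0.44 to -0.35), and Pik3ap1, which encodes the adaptor BCAP, had 39328 and 23450 (-0.70). Ticam2, the bridging adaptor of TLR4, was named after its values were seen and went the other way, with 951 and 1808 counts (0.97, 0.86 to 1.09).

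Of 17 kinases and ubiquitin ligases, none was past 2-fold and 1 was at least 1.5-fold lower, with a median of -0.08. That gene, Irak2, was named after its values were seen and had 8954 and 4351 counts, 1.99-fold lower. Ikbke and Ikbkb, the most abundant by counts, had log2 ratios of -0.56 and 0.19. Negative regulators had the lowest median of the 8 lists, at -0.60 over 14 genes. At least 2-fold lower were 4 of them, against 6.65% of all genes: Socs1, a brake on cytokine signalling, 3.70-fold, Trim30a 2.21-fold, and Tnip1 and Tnfaip3, which restrain NF-kB, 2.18-fold and 2.17-fold. Tnfaip3 was named after its values were seen. Transcription factors had a median of -0.24 over 9 genes. Irf7, a factor that acts after TLR7 and TLR9, was 2.23-fold lower with 23746 and 10324 counts, and the other 8 were within 1.5-fold.

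**Figure D4:**
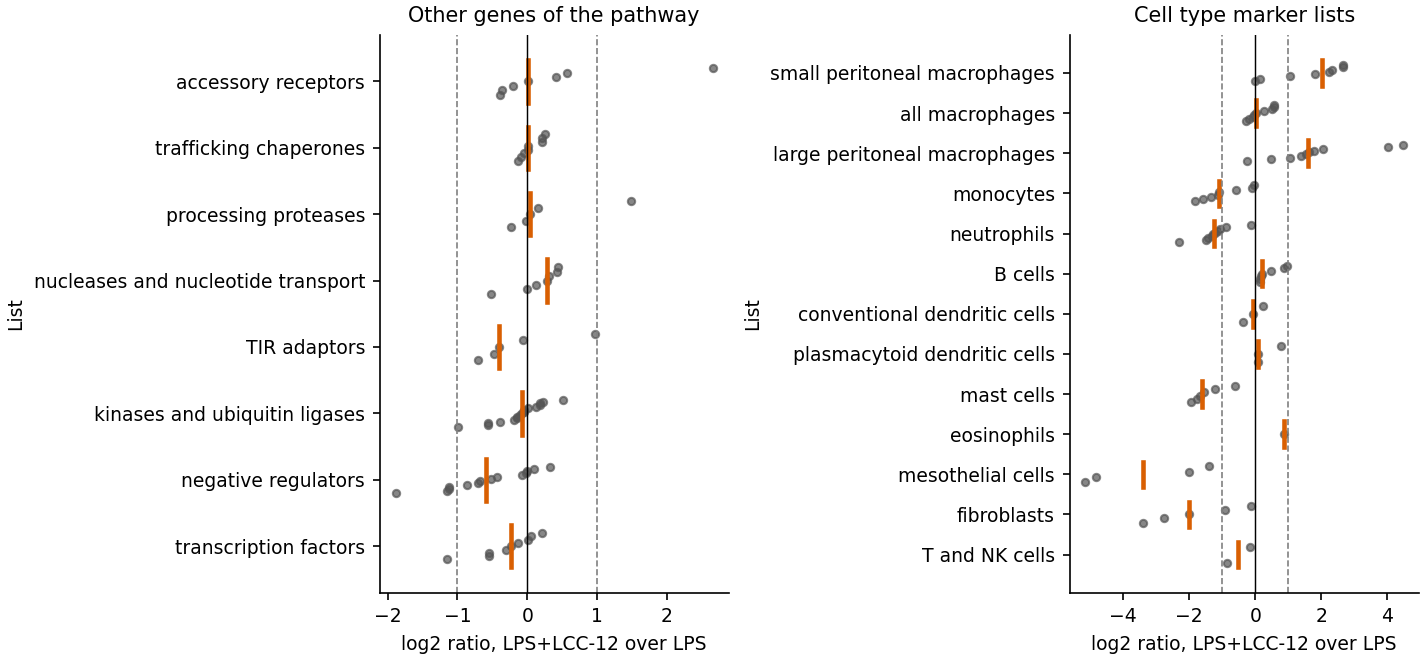
log2 ratio of LPS+LCC-12 over LPS of each gene with 50 or more counts in the 8 pathway lists (left) and 13 marker lists (right); grey points are genes, orange bars list medians and dashed lines 2-fold. Negative regulators have the lowest pathway median at -0.60, and neutrophil and monocyte markers have medians of -1.25 and -1.11 while general macrophage markers are at 0.03.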

How the data were processed

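RNA-seq of 2 libraries of sorted small peritoneal macrophages was analysed, 1 library per group. The authors deposited raw counts per gene in 1 table. Per the submitters' processing notes, reads were aligned with STAR to mm10. Not given in the sources used here are the counting tool, the annotation and whether counting used strand. Per the labels' protocols, libraries were made from 10 ng of total RNA with ribosomal depletion and 12 PCR cycles and read as pairs of 100 bases. The kit marks strand. The labels also name polyA RNA as the molecule, which conflicts with that protocol, and which of them holds is not given in the sources used here.

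Symbols, coordinates and exon lengths came from GENCODE M21 on GRCm38 (55394 of 55487 IDs matched) and start windows from RefSeq (GRCm38.p6). SWISS mice can differ from this reference sequence. Counts were scaled by TMM in edgeR 4.0.16 (R 4.3.3), and CPM uses the scaled library sizes. The log2 ratio has 0.5 counts added per library in proportion to its size. Intervals are exact: Clopper-Pearson for the split of a gene's counts, Poisson for a level. They cover counting error only, and they can be too narrow even for that, since PCR copies are not independent molecules. The interval calculation was checked on simulated Poisson counts, which is the model the intervals assume. That simulation held no PCR copies and no variation between mice, so it cannot show whether the intervals are too narrow for these libraries. Numpy 2.4.6 and scipy 1.17.1 were used.

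The receptors, lists and tests were chosen with earlier results of these data known. Named genes were all receptors, up to 3 genes per pathway list past 2-fold with the largest ratios, or the 2 with the most counts where none passed, and the most abundant gene of each marker list. Adgre1 and marker genes at 0 were named besides. A gene that the rule takes is not reported here. Alternatives were 4 other scalings (among them the DESeq2 1.42.0 median of ratios), the general macrophage markers as reference, 5 added counts, count minimums of 1, 10 and 200, other size limits, the mean for the median, and transcript lengths.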

Additional observations from a re-analysis of the deposited data

How the results depend on the processing

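The direction of each receptor was kept under the 6 alternatives of scaling, reference and added counts, except for Tlr3, whose log2 ratio ran from -0.02 to 0.07. Tlr9 ran from -1.23 to -1.14 and Tlr4 from 0.09 to 0.18. The whole counting interval of Tlr9 was set against 2-fold with TMM scaling only. The median of the receptors ran from -0.46 to -0.36 over 10 alternatives. The scalings moved the median of all genes by at most 0.06. The number of receptors at least 1.5-fold lower became 2 with upper quartile scaling and 2 relative to the general macrophage markers, where Tlr6 passes the limit. With a limit of 3-fold the number lower became 0. With transcript lengths, Tlr4, Tlr7 and Tlr1 took ranks 3, 4 and 5 in the LPS library. The pathway counts stayed within 1.5 times under total counts and a minimum of 10 counts. No paired analysis was possible because each group has 1 library and the result comes from no test.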
